A study of Triticum aestivum with 9 samples.

Results

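The comparison set whole developing wheat grain at 15 days post-anthesis (P2, 3 arrays) against grain at 11 days (P1, 3 arrays), 6 of the 9 arrays of the series. The arrays were chosen by their titles and by no measured value. The other 3 arrays are grain at 20 days (P3). All samples were bread wheat, Triticum aestivum, of the cultivar Jimai 20, grown in field plots, and 3 biological replicates were harvested at each age. RNA of the whole grain was hybridised to an Affymetrix wheat array, whose probe sets, groups of short oligonucleotides, each give 1 signal per transcript, a linear brightness value with no unit. A grain holds several tissues, and in such bulk samples fewer cells of a type and less RNA per cell cannot be told apart.

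Grain filling is the period in which the starchy endosperm stops dividing and fills with starch and storage protein. The green pericarp around it photosynthesises for a time and then fades, while the embryo and the aleurone layer build up lectins and the protective proteins of late embryogenesis, among them Em proteins and dehydrins, which are known from seeds that acquire desiccation tolerance. Small heat shock proteins, which bind unfolding proteins, are also known from maturing seeds. Probe sets for the defining products of the starchy endosperm were bright at both ages. The alpha-gliadin Gli-D2-16 gave 72297, 72324 and 69117 on the P2 arrays and 62424, 61531 and 53794 on the P1 arrays, and granule-bound starch synthase GBSS-I averaged 15186 ± 1012 at P2 and 13143 ± 307 at P1 (SD, n = 3 each).

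Each array held 61290 probe sets, of which 61115 were not controls and 36669 passed a filter on dim signal and were tested. Array medians lay between 79.13 and 90.44 at P2 and between 71.59 and 87.56 at P1. Arrays within an age correlated at r = 0.947 to 0.961 on log2 signal (6 pairs), and P2 with P1 arrays at 0.888 to 0.9 (9 pairs). Background, the 95th percentile of reporter probe sets for sequences foreign to wheat, was 103.8, 153.3 and 148.2 on the P2 arrays and 103.5, 89.39 and 89.53 on the P1 arrays. The poly-A control transcripts, added before labelling, stood higher on the P2 arrays than at either other age. Their log2 level was 0.63 ± 0.03 at P2, -0.25 ± 0.05 at P1 and -0.38 ± 0.01 at P3 (SD, n = 3 each, relative to the mean of all arrays). The log2 ratio of 3-prime to 5-prime signal, often read as a sign of RNA quality, averaged 2.11 ± 0.09 at P2 and 3.32 ± 0.24 at P1 over 4 wheat control transcripts. At P3 it was 2.53 ± 0.07. The same ratio of the poly-A controls, which are not grain RNA, was 1.47 ± 0.04 at P2, 2.06 ± 0.07 at P1 and 2.05 ± 0.07 at P3. Both ratios were lowest at P2 and did not follow the order of the ages. The cause was not tested. The wheat ratio differed between the ages in every comparison given here. Fitted as a covariate it widened the median standard error to 0.952, against 0.234 without it, and left 552 calls. The calls it ended are named with their genes.

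Between the 2 ages 2528 probe sets rose and 2124 fell in P2 against P1, 12.7% of those tested, with 6.89% rising and 5.79% falling. Rose, fell and changed are used here only of calls, which need at least a 2-fold difference and, by limma, an adjusted p under 0.05. Of the rises 789 reached 4-fold and 131 reached 16-fold, and of the falls 471 and 47. The median log2 change over all tested probe sets was 0.01, and the middle 50% lay between -0.41 and 0.46. P2 and P1 arrays did not overlap in 46.1% of tested probe sets, 8359 of them higher and 8561 lower at P2. With no fold threshold, the unadjusted p was under 0.05 in 42.5% of those tested. The adjusted p was under 0.05 in 34.0% of those tested, 16.6% higher and 17.4% lower at P2. Rises made up 54.3% of calls as deposited. The share was 42.5% when arrays were scaled to their medians and 41.7% when scaled to the hybridisation controls, which moved the median change to -0.112 and -0.12. Poly-A scaling moved the median to -0.867 and left rises at 5.21% of calls, so every level here is relative to the bulk of signal on its array.

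**Figure D1:**
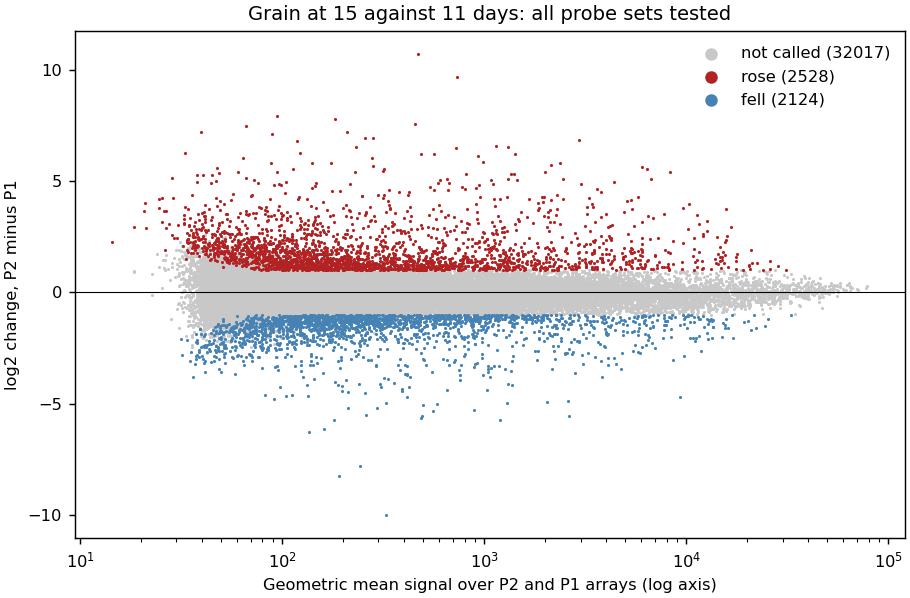
Log2 change in P2 against P1 (vertical axis) plotted against the geometric mean signal over the 6 arrays (horizontal axis, log scale) for the 36669 probe sets tested. The 2528 that rose are red, the 2124 that fell are blue and the rest are grey. The highest fitted change is 10.69 and the lowest -9.98, both of probe sets below background at one age.

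Late embryogenesis genes and the embryo lectin gene WGA2 gave 4 of the 5 highest fitted changes among genes with an informative name, 3 of them with P1 below background on at least 1 array. WGA2 (LOC543494), which encodes wheat germ agglutinin, a chitin-binding lectin of the embryo, had signals of 6318, 6216 and 6305 at P2, against 94.8, 16.3 and 23.3 at P1. All 3 P1 arrays were below background, and it rose at least 66.9-fold (adjusted p = 9.28e-08 by limma). The Em gene EM (LOC543497) read 1982, 2022 and 2036 at P2, against 34.2, 50.5 and 35.7 at P1, again below background on every P1 array, a rise of at least 21.4-fold. On its other probe set it gave 849, 958 and 781 at P2 and 135, 31.9 and 105 at P1, 11.2-fold higher by the fit. One of its 3 P1 arrays was below background, and with dim signals raised to background its log2 change was 2.99, against 3.49 without. The related gene EMH2 (LOC543480) was read by 3 probe sets, which averaged 2249 ± 117, 1666 ± 90.1 and 1191 ± 246 at P2, and 45.1 ± 41.6, 72.0 ± 23.3 and 51.9 ± 42.4 at P1. The sequences of the Em genes are close enough that their probe sets may read each other's transcripts. At P3 the first probe set of EM averaged 42337 ± 3994 and that of WGA2 17421 ± 942, both called higher than at P2. That comparison shares the P2 arrays with the one described here, and in it 7.23% of probe sets were called, 4.46% as rises and 2.77% as falls. No alternative scaling or covariate was applied to it, so its calls are given as deposited only.

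The dehydrin gene Rab15 (LOC543293) rose on all 3 of its probe sets. The first gave 5955, 6027 and 5287 at P2, against 341, 281 and 264 at P1, a 19.6-fold difference (log2 change 4.29, SE 0.10, adjusted p = 1.9e-11 by limma). The second was 16.6-fold higher, and the third, below background on every P1 array, at least 23.3-fold higher. LEA1 (LOC543476), a late embryogenesis gene already bright at P1, had signals of 11704, 13015 and 15708 at P2 and 5070.1, 6025 and 5707 at P1. It rose 2.39-fold, the smallest change in the list. Together the late embryogenesis and dehydrin genes rose in 9 of 9 tested probe sets of 4 genes, against 6.89% of all probe sets. Their median change was 4.58 on the log2 scale (4.11 after raising dim signals to background), against 0.01 for all probe sets. These genes were put in the list with their change already known, so the count is a description. The dehydrin COR410 did not pass the filter. Calls of WGA2 (adjusted p = 0.26 by limma), LEA1, 2 probe sets of EMH2 and 1 of EM were lost when the 3-prime to 5-prime ratio entered as a covariate, and that of LEA1 under poly-A scaling too.

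Of the chaperones, hsp16.9A (LOC543277), a cytosolic small heat shock protein, had signals of 9007, 8589 and 8099.5 at P2, against 245, 183 and 227 at P1. It rose 39.5-fold (log2 change 5.30, SE 0.10, adjusted p = 5.04e-12 by limma). No alternative scaling, filter or choice of arrays ended that call, and its P3 mean was 4616 ± 139, lower than at P2 without passing 2-fold. FKBP70 (LOC543314), a prolyl isomerase that works with chaperones, averaged 9208 ± 1510.5 at P2 and 6771 ± 232 at P1 and was not called (log2 change 0.43).

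Of 6 probe sets of amino acid and methyl transfer genes, 2 rose and 0 fell, against 6.89% and 5.79% of all probe sets. PEAMT1 (LOC543067), a phosphoethanolamine methyltransferase on the route to choline, gave 1335, 1150.5 and 1059.6 at P2, against 127, 164 and 206 at P1, 7.25-fold higher. PIMT (LOC543193), which repairs damaged aspartyl residues in proteins, gave 1043, 916 and 887 at P2, against 165, 279.8 and 197 at P1, 4.53-fold higher. Both groups of arrays were well apart for these genes. The enzyme that clears the by-product of methyl transfer, SAHH, stood at 28826 ± 853 at P2 and 27677 ± 1926 at P1, with overlapping arrays. TSA (LOC542768), tryptophan synthase alpha, averaged 7849 ± 468 at P2 and 14195 ± 529 at P1 on the brighter of 2 probe sets, a log2 change of -0.86 that missed 2-fold. The call of PIMT ended with the covariate.

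**Figure D2:**
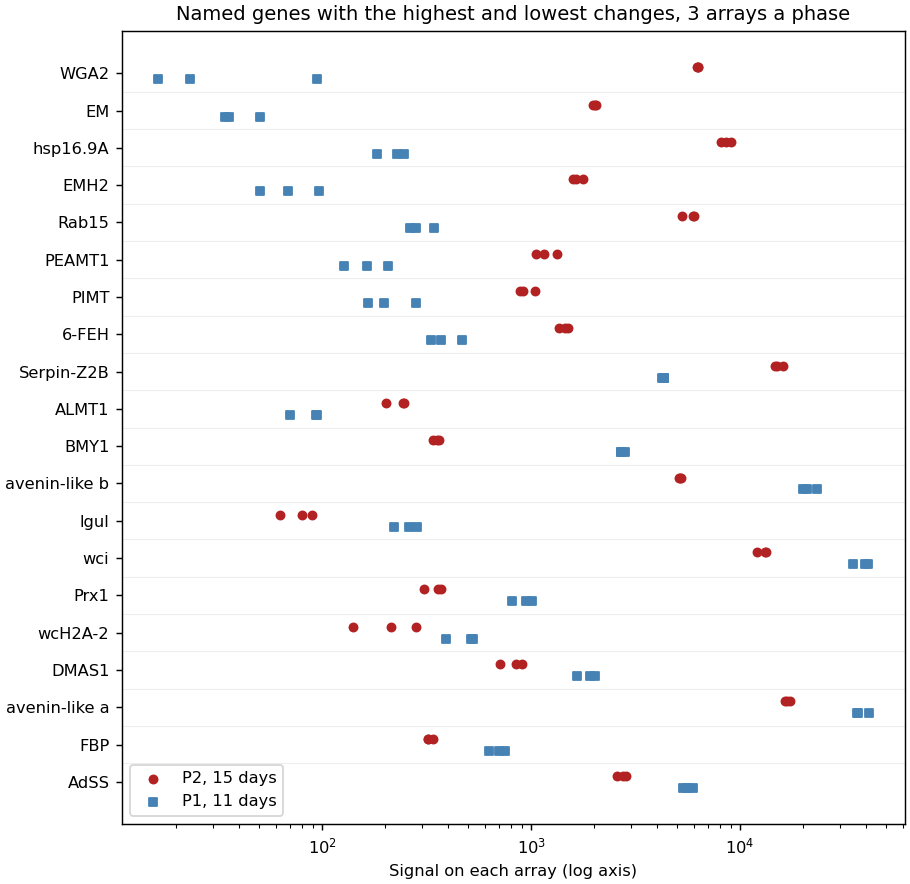
Signal on each of the 3 P2 arrays (red circles) and 3 P1 arrays (blue squares) for the 10 named genes with the highest changes (upper rows) and the 10 with the lowest (lower rows), 1 probe set a gene, on a log axis. In no row do the 2 ages overlap, which the rule that chose these genes requires. WGA2 shows the widest gap, with P2 arrays near 6280 and every P1 array under 95.

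Most storage protein probe sets were bright at both ages. Of the 17, 2 fell and 0 rose, against 5.79% and 6.89% of all probe sets. Both falls were of avenin-like genes, which encode sulphur-rich relatives of the gliadins. One of 4 probe sets of the avenin-like b gene (LOC100125692) gave 5114, 5161 and 5206 at P2, against 20055, 23246 and 20871 at P1, and fell 4.14-fold (log2 change -2.05, SE 0.07, adjusted p = 3.94e-10 by limma). The remaining 3 had log2 changes of -0.68, -0.59 and 0.16, none of them called and not all on the same side of 0. One of 2 probe sets of the avenin-like a gene (LOC780582) gave 16453, 16794 and 17336 at P2 and 36818, 41368 and 36302 at P1 and fell 2.26-fold, and the other was at -0.95 on the log2 scale. By P3 the first probe set of the b gene stood at 11110.1 ± 431, called higher than at P2, and that of the a gene at 32008 ± 3814, which was not called.

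Gliadins and low-molecular-weight glutenins make up the rest of the list, and no probe set of theirs was called. A gamma-gliadin probe set (LOC543214) averaged 18259.9 ± 381 at P2 and 30672 ± 1207 at P1 (log2 change -0.75, adjusted p = 3.09e-06 by limma, short of 2-fold), while another probe set of that locus stood at 48012 ± 2798 at P2 and 49433 ± 2692 at P1. The alpha-gliadin Gli-8 (LOC543211) averaged 66525 ± 6951 at P2 and 50316 ± 7153 at P1, a log2 change of 0.41. Dim probe sets were in the list too. That of gamma-gliadin averaged 281 ± 42.8 at P2 and 408 ± 54.3 at P1. That of a low-molecular-weight glutenin (LOC543213) averaged 80.8 ± 2.15 at P2, below background on every P2 array, and 137 ± 60.3 at P1. Over the whole list 8 probe sets were lower and 2 higher at an adjusted p under 0.05 with no fold threshold, against 17.4% and 16.6% of all probe sets, and the median log2 change was -0.36. With poly-A scaling 10 of the 17 fell and the median was -1.24. The call of the avenin-like a probe set ended with the covariate (adjusted p = 0.0833 by limma).

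Starch synthesis genes had 0 calls in 4 probe sets, and by limma an unadjusted p under 0.05 in 2 of them, against 42.5% of all probe sets. AGP-S (LOC543299), the small subunit of ADP-glucose pyrophosphorylase, gave 37146, 42023 and 35237 at P2 and 43178, 42967 and 39813 at P1, with overlapping arrays. The large subunit gene AGA.1 (LOC543278) averaged 591 ± 44.4 at P2 and 892 ± 49.5 at P1 on its brighter probe set (log2 change -0.60). BMY1 (LOC543318), a beta-amylase, was the named gene with the lowest change. Its signals were 360.3, 354 and 337 at P2, against 2677, 2821 and 2679 at P1, and it fell 7.78-fold (log2 change -2.96, SE 0.15, adjusted p = 1.73e-08 by limma), a call that no alternative scaling, filter or choice of arrays ended. A further fall, to 176 ± 37.3, was called at P3 against P2 (log2 change -1.02, close to the threshold). That second call was not tested under any alternative.

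Among sugar genes, 6-FEH (LOC780575), a fructan exohydrolase that releases fructose from fructan, rose on 2 of 3 probe sets. The first gave 1493, 1449 and 1354 at P2, against 331, 464 and 369 at P1, 3.73-fold higher, and the second was 3.32-fold higher. The related 1-FEH (LOC543441) averaged 1555 ± 48.4 at P2 and 1918 ± 45.7 at P1 and was not called. In glycolysis, Pgk-1 (LOC543496), a phosphoglycerate kinase, averaged 1067 ± 141 at P2 and 2046 ± 144 at P1, and its log2 change of -0.95 stood just short of 2-fold. Both 6-FEH calls ended with the covariate, and poly-A scaling ended that of the second probe set (log2 change 0.85).

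Of 12 probe sets of serpin, xylanase inhibitor and amylase inhibitor genes, 4 rose and 0 fell, against 6.89% and 5.79% of all probe sets. The list holds genes whose name states such a role, and wci, described further on, has no product in the annotation used here and was put in no list. Serpin-Z2B (LOC543382), a serpin that traps proteases, gave 16039, 14935 and 14724 at P2, against 4321, 4240.3 and 4322 at P1, and rose 3.54-fold (log2 change 1.83, SE 0.09). Serpin-Z1C (LOC542985) gave 4453, 4259.9 and 6723 at P2 and 1909.6, 2082 and 1942 at P1, with P2 replicate 3 the highest, and rose 2.55-fold. XIP-I (LOC542997), a xylanase inhibitor, rose on both of its probe sets, 2.53-fold and 2.4-fold. Another serpin, Serpin-Z2A (LOC543376), averaged 987 ± 63.6 at P2 and 577 ± 125 at P1 (log2 change 0.79, not called), and the alpha-amylase inhibitor WMAI-1 (LOC542981) 52334 ± 2826 at P2 and 48089.6 ± 3821 at P1, with overlapping arrays. Poly-A scaling ended all 4 inhibitor calls and turned the list's median log2 change to -0.521 from 0.36 as deposited, and all 4 ended with the covariate.

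Thionins, small antimicrobial peptides of the endosperm, rose in 1 of 6 probe sets, against 6.89% of all probe sets. TTHV gave 29192, 30943 and 32363 at P2, against 13459, 13848 and 13317 at P1, and rose 2.28-fold. Its call ended under poly-A scaling (log2 change 0.31) and with the covariate (adjusted p = 0.339 by limma). Pur-A1 (LOC543413), a purothionin, averaged 34605 ± 2238 at P2 and 24266 ± 1886 at P1 and was not called. P2 lay above P1 without overlap in all 6 probe sets, where 46.1% of all probe sets did not overlap in one direction or the other. The list's median log2 change of 0.40 became -0.481 under poly-A scaling and -0.219 with the covariate.

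Redox genes fell in 4 of 15 probe sets and rose in 0, against 5.79% and 6.89% of all probe sets. Of these 4 probe sets, 3 belonged to Prx1 (LOC606328), whose brightest gave 357, 368 and 308 at P2, against 948, 806 and 1007 at P1, and fell 2.67-fold. A dimmer Prx1 probe set, below background on every P2 array, overlapped between the ages and was not called (log2 change -1.07). The fourth fall was that of lgul (LOC542984), lactoylglutathione lyase of the glyoxalase pathway, with 62.8, 80.1 and 89.1 at P2, all below background, against 261, 284 and 220.0 at P1. It fell at least 1.9-fold, its call ended with dim signals raised to background (log2 change -0.93), and its brighter probe set averaged 179.9 ± 30.9 at P2 and 357 ± 67.8 at P1 with no call. The catalase CAT1 averaged 509 ± 89.0 at P2 and 818 ± 92.5 at P1, and Trx-M (LOC542973), a plastid thioredoxin, 1359 ± 76.9 at P2 and 1712 ± 60.4 at P1, neither called. In the opposite direction, and not called, PER1 (LOC543108) gave 40081, 39893 and 38758 at P2 and 21545, 25393 and 23093 at P1, and HGGT (LOC543094), an enzyme of tocotrienol synthesis, averaged 3781 ± 410.0 at P2 and 2774 ± 105 at P1. All 4 redox calls ended with the covariate.

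Photosynthesis genes, which mark the green pericarp, fell in 1 of 15 probe sets and rose in 1. That is 6.67% each way, close to the 5.79% that fell and 6.89% that rose among all probe sets. FBP, a fructose bisphosphatase, gave 322, 337 and 319.9 at P2, against 702, 745 and 627 at P1, and fell 2.11-fold. PsbO (LOC543291) of the oxygen-evolving complex averaged 4567 ± 265 at P2 and 8286 ± 799.7 at P1 (log2 change -0.86, adjusted p = 8.83e-06 by limma), short of 2-fold, and was called lower at P3 than at P2 (1703 ± 128 at P3). The Rieske protein gene petC and phosphoribulokinase PRK (LOC543283) had log2 changes of -0.58 and -0.48. PsbP (LOC543290) had log2 changes of -0.47 and 0.24 on different probe sets, and neither was called. The rise was 1 of 9 rubisco large subunit (rbcl) probe sets, with 775, 995 and 564 at P2 and 250.4, 430.1 and 336 at P1. That call was lost without P1 replicate 1 (adjusted p = 0.0556 by limma), without P2 replicate 2 (adjusted p = 0.061 by limma) and with no intensity trend in the variances (adjusted p = 0.0547 by limma). It was also lost with poly-A scaling (log2 change 0.31, adjusted p = 0.408 by limma), under which 7 probe sets of the list fell, 0 rose and the median was -0.984, against -0.10 as deposited. The brightest rbcl probe set averaged 64122 ± 4326 at P2 and 60238 ± 3146 at P1 and its arrays overlapped. Both calls of the list ended with the covariate.

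**Figure D3:**
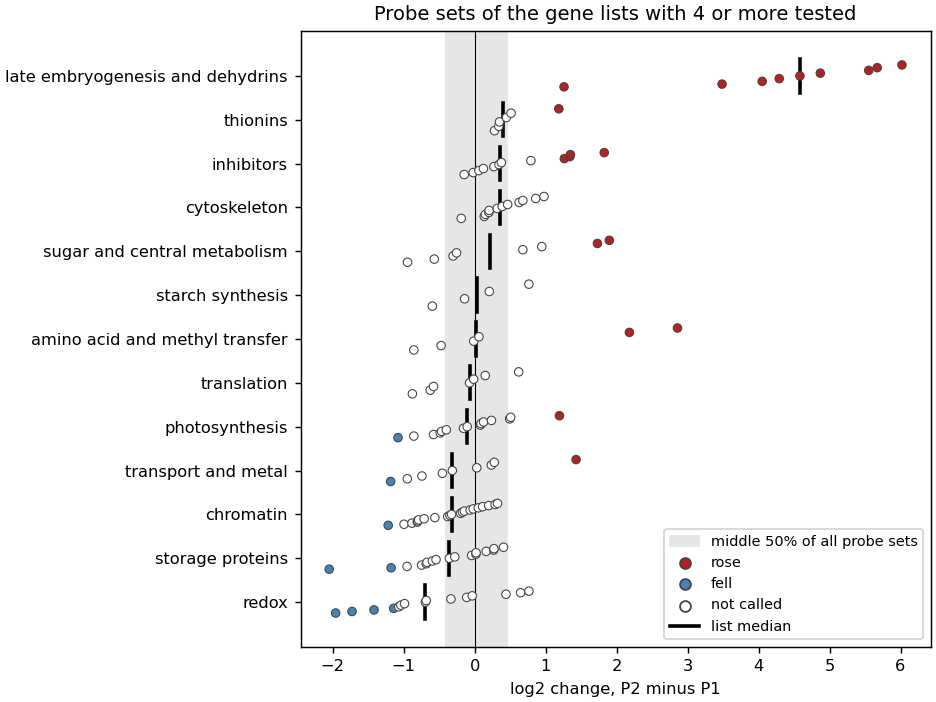
Log2 change in P2 against P1 for every tested probe set of the gene lists with at least 4, 1 point a probe set, with rises in red, falls in blue and the rest open. Black bars are list medians and the grey band is the middle 50% of all probe sets, from -0.41 to 0.46. Late embryogenesis and dehydrin probe sets all lie at 1.26 or above, and redox holds 4 falls.

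Chromatin genes fell in 1 of 21 probe sets and rose in 0, against 5.79% and 6.89% of all probe sets. The falling probe set, of histone wcH2A-2 (LOC732712), gave 213, 141 and 282 at P2, against 392, 517 and 525 at P1. One P2 array was below background. It fell 2.33-fold, the call was lost without P2 replicate 2 (log2 change -0.95) and with the covariate, and the P3 mean was 451 ± 109. Probe sets of wcH2A-9 (LOC732714) ranged from -0.99 to -0.17 over 6, and those of wcH2B-6 (LOC543183) were at -0.81 and -0.71 on the log2 scale, none of them called. Those of wcH2B-8 (LOC543184) ran from -0.35 to 0.32 over 7. At an adjusted p under 0.05 with no fold threshold, 9 of the 21 were lower and 3 higher, against 17.4% and 16.6% of all probe sets. Scaled to array medians or to hybridisation controls 3 probe sets fell, and with poly-A scaling 14. Histone genes are alike in sequence, so a probe set may read several copies.

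Cytoskeleton genes had 0 calls in 12 probe sets, with log2 changes between -0.19 and 0.98. By limma 9 of the 12 had an unadjusted p under 0.05, 8 of them higher at P2, against 42.5% of all probe sets under that p. The beta-tubulin tubb1 (LOC543257) averaged 20646 ± 982 at P2 and 10482 ± 344 at P1 and stood just short of 2-fold, and 1 of 2 TUBA probe sets averaged 4467 ± 277 at P2 and 2459 ± 128 at P1. The list's median of 0.35 became -0.527 under poly-A scaling, and quantile normalization gave 1 rise. In the cell wall pair, COMT1 (LOC543449), a methyltransferase of lignin synthesis, averaged 28558 ± 2950.2 at P2 and 18534 ± 799.9 at P1, and XTH, which remodels xyloglucan, 549 ± 77.0 at P2 and 828 ± 37.3 at P1, neither called.

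In transport and metal handling 1 of 9 probe sets rose and 1 fell, against 6.89% and 5.79% of all probe sets. ALMT1 (LOC543388), a malate channel known for aluminium tolerance in wheat roots, gave 242, 246 and 201 at P2, against 70.0, 92.8 and 94.4 at P1, and rose 2.69-fold, with 1 P1 array below background. DMAS1 (LOC100037594), which makes the iron chelator deoxymugineic acid, gave 711, 841 and 908 at P2, against 1648, 2028 and 1901 at P1, and fell 2.27-fold on 1 of 3 probe sets, the other 2 being at -0.95 and -0.45 on the log2 scale. Both calls ended with the covariate, and poly-A scaling also ended that of ALMT1. Of the purine genes, AdSS (LOC543243), adenylosuccinate synthetase, gave 2836, 2580.2 and 2763 at P2, against 5335, 5571 and 5933 at P1, and fell 2.06-fold. It stood close to the threshold, and its call ended with the covariate (log2 change -0.91). The adenine salvage gene APT1 (LOC543227) averaged 5399 ± 595 at P2 and 5475 ± 50.3 at P1.

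Translation genes had 0 calls in 7 probe sets, and by limma 2 of these were under an unadjusted p of 0.05, against 42.5% of all probe sets. The initiation factor gene Eif4B (LOC543417) gave 6361, 6265 and 6136 at P2 and 11512, 11681 and 11258 at P1. Its log2 change of -0.88 passed 2-fold with arrays scaled to their medians (-1.002), to hybridisation controls (-1.01) or to poly-A controls (-1.76). eIF4E (LOC543485) averaged 5488 ± 246 at P2 and 5537 ± 107 at P1. For gibberellin synthesis, GA20ox1d (LOC543325), a gibberellin 20-oxidase, was near background, at 61.8, 163 and 124 at P2 and 116, 186 and 120.3 at P1. Outside the lists, wci (LOC542996) gave 12067, 13361 and 13169.6 at P2, against 41122, 39441 and 34780.3 at P1, and fell 2.98-fold (log2 change -1.58, SE 0.09, adjusted p = 4.28e-08 by limma), a call that no alternative scaling, filter or choice of arrays ended.

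The annotation names 669 further genes by a locus number alone, and 865 probe sets of 583 of them were tested. They are given by locus, with no role, since the sources used here state none. In P2 against P1, 99 of these probe sets rose and 35 fell, or 11.4% and 4.05%, against 6.89% and 5.79% of all probe sets. The rises fell on 82 genes and the falls on 29. Rising probe sets had a median signal of 1530 at P2 and 303 at P1 and a median fold of 3.31, and falling ones 1030 at P2 and 2520 at P1 and a median fold of 2.45. Scaled to array medians the counts were 80 and 54, and scaled to the poly-A controls they were 38 and 307.

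By fitted change LOC543201 came first, which rests on P1 signals far below background. It had 604, 1125 and 1036 at P2, against 7.05, 4.0 and 4.30 at P1, and its supported difference is at least 9.47-fold. Of the loci above background at both ages LOC542908 came first. It had 32232, 30812 and 32144 at P2, against 251, 324 and 261 at P1, and rose 115-fold. Both were higher still at P3, at 2818 ± 131 and 52871 ± 8902, of which the first was called against P2. LOC606352 rose at least 14.5-fold, to 1396 ± 334 at P2, against 73.6 ± 7.29 at P1, and LOC543263 17.1-fold, to 21069 ± 1645 at P2, against 1232 ± 45.2 at P1. LOC542794 was dim, with 146, 26.1 and 199 at P2 and 6.31, 5.45 and 8.50 at P1. Its call ended with dim signals raised to background, and no fold is given for it.

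Of the 12 loci with the highest changes, 7 were called lower at P3 than at P2, against 2.77% of all probe sets. That comparison shares the P2 arrays on whose high signal these loci were chosen, so the count is a description. LOC542846 had 15333, 15906 and 15589.6 at P2, against 296, 330.1 and 266 at P1, a 52.7-fold rise (log2 change 5.72, SE 0.08, adjusted p = 7.06e-13 by limma), and at P3 it averaged 1466 ± 41.8. LOC543416 had 7612, 6859 and 7969.5 at P2, against 562, 402 and 434 at P1, and its P3 mean of 443 ± 36.9 was back near that of P1. LOC543477 had 2639, 2889.7 and 2832 at P2, against 137, 95.5 and 88.3 at P1, and averaged 219 ± 24.2 at P3. In these 3 loci the P2 arrays stood above both other ages, as they did in LOC543404, LOC543421, LOC542804, LOC543368 and LOC543263. The rule that chose the loci requires P2 and P1 arrays to stand apart. LOC543404 rose 29.5-fold, LOC543421 17.5-fold, LOC542804 14.5-fold and LOC543368 14.1-fold, and their P3 means were 4412 ± 129, 5126 ± 68.7, 1981 ± 67.8 and 3369.8 ± 182. The P2 arrays are also those with the lower 3-prime to 5-prime ratio and the higher poly-A control level (log2 level 0.63 at P2 and -0.38 at P3). Their part in these levels was not tested beyond the covariate and the scalings, which were applied to P2 against P1 only. Of the 12 rises only that of LOC542794 lost its call under them. The lower levels at P3 than at P2 were not tested under any alternative.

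**Figure D4:**
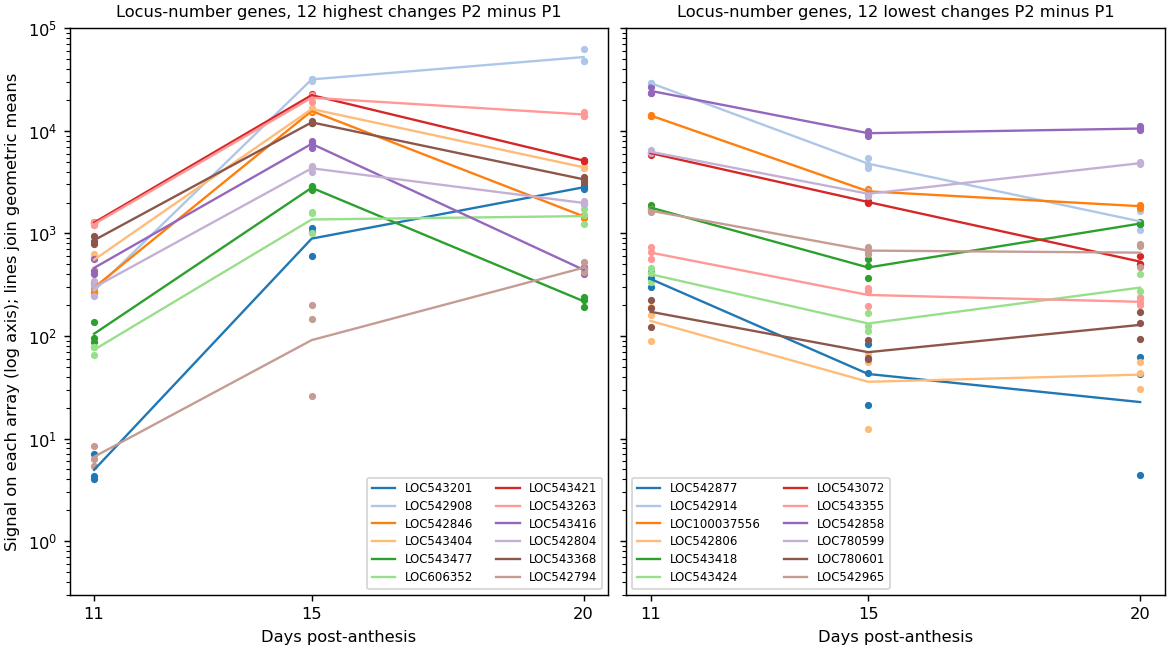
Signal on each array (points, log axis) at 11, 15 and 20 days for the 12 locus-number genes with the highest (left) and the 12 with the lowest (right) changes in P2 against P1, with lines through the geometric means. On the left 7 of 12 were called lower at 20 than at 15 days, LOC543416 and LOC543477 among them, against 2.77% of all probe sets. Both comparisons share the 15-day arrays. On the right LOC542914 and LOC543072 were called lower again at 20 than at 15 days. No alternative scaling was applied to the comparison of 20 with 15 days.

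Among falling loci LOC542914 had 5466, 4333 and 4614 at P2, against 29554, 28882 and 29273 at P1, and fell 6.11-fold. LOC100037556 had 2627, 2703 and 2392 at P2, against 13978, 14268 and 14076 at P1, and fell 5.49-fold (log2 change -2.46, SE 0.07). The 2 ages were far apart in both. LOC543072, at 2023 ± 41.5 at P2 and 6065 ± 195 at P1, fell 3-fold and, like LOC542914, was called lower again at P3 (532 ± 55.0 and 1331 ± 304). LOC542858, LOC780599, LOC543355 and LOC542965 fell between 2.45-fold and 2.59-fold. LOC543418 averaged 472 ± 99.6 at P2, against 1787 ± 92.0 at P1, and LOC543424 134 ± 29 at P2, against 403 ± 59.3 at P1, with 2 P2 arrays of LOC543424 below background. They fell 3.84-fold and 3.02-fold and were called higher again at P3, at 1247 ± 37.9 and 304 ± 85.8.

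A further 3 loci were dim. LOC542877 had 43.7, 82.9 and 21.3 at P2, all below background, against 416, 302 and 370.2 at P1, at least 2.7-fold lower, and lost its call without P2 replicate 3 (adjusted p = 0.0548 by limma). LOC542806 had 55.3, 66.3 and 12.4 at P2 and 160.1, 88.7 and 193 at P1, at least 1.05-fold lower. Leaving out P1 replicate 1, P1 replicate 3 or P2 replicate 3 ended its call, with adjusted p = 0.0904, 0.123 and 0.0927 by limma. LOC780601, at least 1.29-fold lower at P2, lost its call without P1 replicate 3 (adjusted p = 0.0592 by limma) and turned to a log2 change of 0.35 with the covariate. With dim signals raised to background, LOC542806 and LOC780601 stood at log2 changes of -0.08 and -0.37 and were not called. With the covariate 10 of the 12 falling loci lost their call, all but LOC542914 and LOC100037556.

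Where a gene with a name or a locus number had 2 or more tested probe sets, 66 of 226 genes had at least 1 call. In 17 of the 66 every probe set was called the same way, in 49 only some were, and in 0 did probe sets of one gene have calls in both directions. Informative names were called in 20.4% of 167 probe sets, bare loci in 15.5% of 865 and probe sets without a gene in 12.6% of 35637. Probe sets with the suffix _x_at, some of whose probes match unrelated transcripts, were called in 14.4% of 5308, against 11.9% of 26225 with the plain suffix _at. By mean signal over all arrays the share called was 12.3% under 300 and 13.1% at 10000 and over, with rises making up 52.2% and 69.7% of those calls. Median absolute log2 change was 0.50 in the dimmest class and 0.31 in the brightest, and the median standard error 0.411 and 0.0828.

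**Figure D5:**
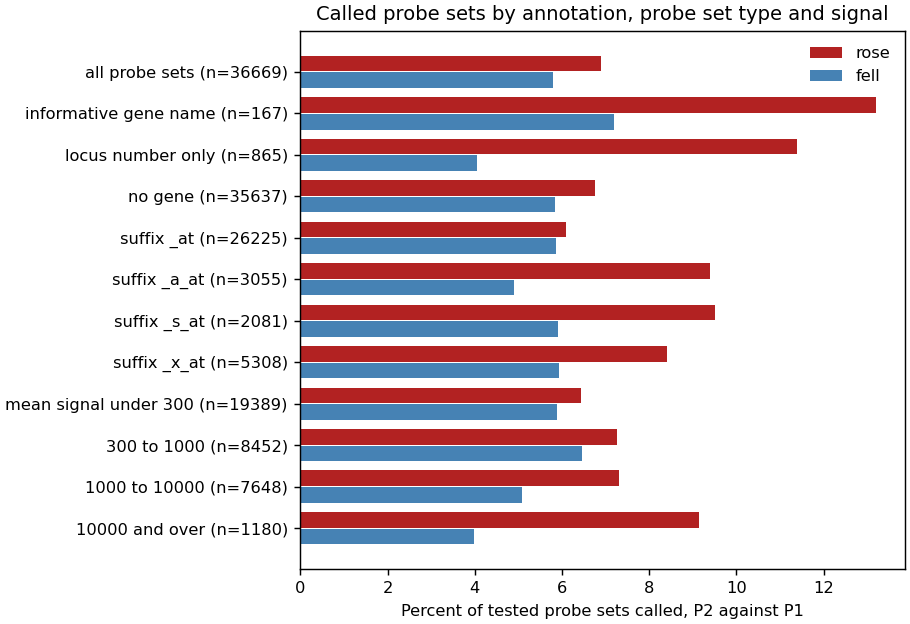
Percent of tested probe sets that rose (red) and fell (blue) in P2 against P1, by annotation, by probe set suffix and by mean signal over the 9 arrays, with the number tested in brackets. Probe sets with an informative gene name rose most often (13.2%), and those with a bare locus number fell in 4.05%.

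Most calls, 2407 rises and 2077 falls, were of probe sets with no gene in the annotation. The 2 highest fitted changes on the array were of a pair of probe sets of one transcript, Ta.9227.1.S1_x_at and Ta.9227.1.S1_at. The first gave 18687, 19542 and 19027 at P2, against 12.1, 9.61 and 13.1 at P1, all below background, at least 203-fold higher. The second was at least 223-fold higher. The lowest fitted changes were those of Ta.10068.1.S1_at, with 5.50, 29 and 6.73 at P2, below background, against 10219, 10344 and 10528 at P1, at least 77.9-fold lower, and Ta.12772.1.S1_at, at least 24.9-fold lower. The calls of both falling probe sets ended with the covariate. In all, 297 probe sets were below background on every P1 array and above it on every P2 array, 292 of them called, and 1378 were the reverse, 623 of them called. The higher background of P2 replicates 2 and 3 bears on the second count, and with dim signals raised to background 1340 probe sets fell and 1831 rose.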

How the data were processed

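The deposited values are intensity signals on a linear scale, which the authors made with MAS5, per the submitters' processing notes (version not given in the sources used here), and whose trimmed mean is the same on every array. From them log2 signals were computed with no pseudocount. The 175 control probe sets (111 AFFX, 64 reporter) and the dimmest 40% of the others were left out. limma 3.58.1 in R 4.3.3 fitted all 9 arrays with age as a factor and an intensity trend, so that P3 arrays add to the estimate of spread, with Benjamini-Hochberg adjustment over 36669 probe sets. The number of arrays limits the precision, and 3 against 3 arrays cannot reach an exact permutation p under 0.1. The labels call the replicates independent experiments, grown in field plots.

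Means and SDs are of linear signals, and folds are from log2 means. Where a group was below background on all of its arrays, the fold is a lower bound: the brighter group's mean over the dim group's mean with each dim array at the higher of its background and its own signal (means of log2 values). Gene names are those of the array's annotation, with symbols and synonyms from RefSeq (assembly IWGSC CS RefSeq v2.1), which held 770 of 771 annotated genes. Bread wheat has 3 subgenomes, and probe sets may read several near-identical copies, so values of multigene families are uncertain.

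The comparison, members and 19 hand-made gene lists were chosen with earlier results of these data known. Named were the 10 highest and 10 lowest changes among genes with an informative name and the 12 highest and 12 lowest among locus numbers, each among called probe sets whose ages do not overlap. The rule also took every called probe set of a list with the list's brightest member, and the 2 highest and 2 lowest without a gene. The brightest probe sets of the inhibitor, thionin, chromatin, cytoskeleton and transport lists were not called and are not described here. Other list members that were named were chosen after their values were seen. Alternatives covered scaling, filters, background, thresholds, arrays left out, a replicate block and the 3-prime to 5-prime ratio as a covariate. They were applied to P2 against P1 and not to P3 against P2.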

Additional observations from a re-analysis of the deposited data

How the results depend on the processing

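Of 2528 rises and 2124 falls, scaling to the poly-A controls gave 752 and 13671, the 3-prime to 5-prime ratio of wheat controls as a covariate 396 and 156, and a 4-fold threshold 789 and 471. Raising dim signals to background gave 1831 rises and 1340 falls. Leaving out 1 array at a time gave between 2310 and 2679 rises and between 1836 and 2242 falls. Quantile normalization, median scaling, scaling to hybridization controls, no filter, a filter on the lowest 60%, P1 and P2 arrays only, a pseudocount of 32 and no intensity trend left both counts within 1.5 times. So did 2 alternatives chosen after seeing the data: probe sets above background on at least 3 of the 6 arrays (2023 and 2026), and leaving out P2 replicates 2 and 3, whose background was highest (1908 and 2506). Deviations of same-numbered P2 and P1 arrays from their age means correlated at -0.0194, -0.0454 and 0.013. These values show no shared effect of the replicate number, but they cannot show whether same-numbered samples were grown or harvested together. The replicate block gave 2486 rises and 2088 falls. Of 62 called probe sets named by the rule, 25 kept their call throughout and 37 lost it at least once, all of them with the covariate. LOC780601 reversed there, to a log2 change of 0.35. The cause of these shifts was not tested. The covariate separates the ages, and with it the median standard error was 0.952, against 0.234. Signal near background limits dim probe sets, whose median standard error is 0.411 under a mean signal of 300.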
